A study of Mus musculus with 21 samples.

Results

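The comparison is that of mouse embryoid bodies grown with ascorbic acid (vitamin C) against embryoid bodies grown without it, both collected on day 2 of differentiation. It uses 6 of the 21 arrays of the study, the 3 treated and the 3 untreated day 2 arrays chosen by their titles, and same-numbered replicates were taken as pairs. All cells were CGR8, an established line of mouse embryonic stem cells. Embryoid bodies, the aggregates in which stem cells begin to form the germ layers, were made in hanging drops of 500 cells in 25 µL. The control medium was labelled 20% IMDM, and the treated medium was the same with ascorbic acid at 100 µM. The study also holds 3 arrays of undifferentiated cells (day 0, grown in 10% GMEM) and 3 treated and 3 control arrays each of days 3 and 5, for which aggregates had been moved from the drops to a shaker. The labels call the replicates biological without saying whether they were separate cultures, so p-values measure the spread between these samples. The arrays are selected, since the submitters kept only cultures in which beating aggregates were later more frequent with the treatment. The labels do not say when ascorbic acid was added.

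Ascorbate keeps the iron of 2-oxoglutarate dioxygenases in its reduced form. These enzymes include the prolyl hydroxylases that mark hypoxia-inducible factor (HIF) for destruction, the TET enzymes that oxidise methylated cytosine, the JmjC histone demethylases and the hydroxylases of collagen. HIF drives glucose uptake, glycolysis and genes of low-oxygen survival, while TET enzymes and DNA methylation bear on germline genes, many of which are kept silent by promoter methylation after the embryo implants. Day 2 of embryoid body culture is the time at which naive stem cells pass into a state like that of the epiblast, before heart or blood cells form.

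Each gene was represented by 1 probe set on an Affymetrix mouse array, and a level is its log2 signal, and a difference of 1 means a 2-fold change. With ascorbic acid, 383 of 18193 genes (2.11%) were higher and 98 (0.539%) were lower at an adjusted p under 0.05, which is 481 genes or 2.64% (limma, treated minus control within pairs, Benjamini-Hochberg). These are the genes described as called, or as having risen or fallen. The rise was small for most of them: the median size of the called differences was 0.52, and 27 genes exceeded 2-fold, 21 of them higher and 6 lower. In 477 of the 481 the sign was the same in all 3 pairs. The treated and control arrays did not overlap for 248 of the higher genes (1.36% of all genes) and 64 of the lower (0.352%), against 1225 (6.73%) and 1229 (6.76%) of all genes, called or not. The count depends on how the pairs enter the fit. A fit without pairing, which also held the 3 day 0 arrays, called 1 gene (0.0055%). It had 1341 genes at an unadjusted p under 0.05, against 3248 in the paired fit. Without the day 0 arrays, a replicate block across days in place of the pairs called 21 genes. The count also depends on single pairs, since 89 genes were called without replicate 1, 209 without replicate 2 and 1212 without replicate 3. When the arrays were quantile-normalised anew, 246 genes were higher and 130 lower.

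**Figure D1:**
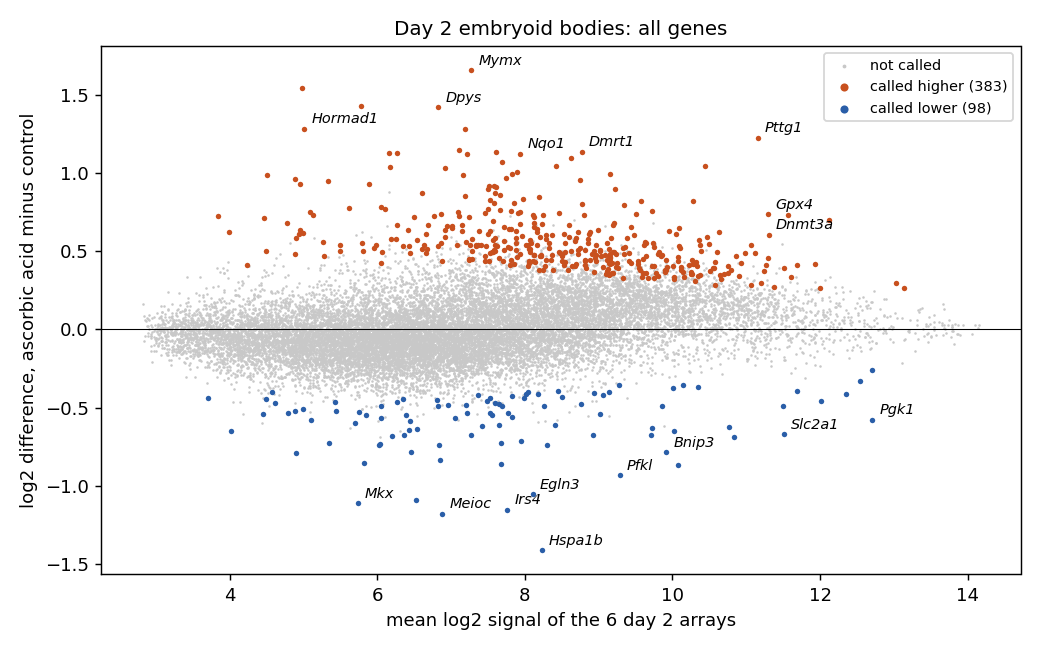
Each point is 1 of 18193 genes, placed by its mean log2 signal over the 6 day 2 arrays (horizontal axis) and its log2 difference, ascorbic acid minus control (vertical axis); grey genes were not called. The 383 genes called higher (orange) and the 98 called lower (blue) lie mostly within 1 log2 unit of 0, and genes named in the text are marked.

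The 6 arrays had medians of 6.12 to 6.19 and correlated with each other at 0.981 to 0.994. The cells had the markers of stem cells and epiblast, with Pou5f1, Sox2, Nanog, Sall4, Utf1, Fgf5 and Otx2 all at mean levels of 9.08 or higher, and 0 of these 7 genes called. Their summed linear signal was 10916 to 11795 in control arrays and 10281 to 12941 in treated arrays. The summed signal of 5 cardiomyocyte markers was 523 to 554 in controls and 503 to 546 in treated arrays, with 0 called. That of 10 fibroblast and feeder markers was 1669 to 1956 in controls and 1234 to 1676 in treated arrays, with Vim called. For 7 extraembryonic endoderm markers it was 1049 to 1173 and 861 to 1102, for 6 trophoblast markers 312 to 373 and 302 to 325, and for 4 neuroectoderm markers 414 to 477 and 354 to 402, with Nes called. Linear sums weigh the brightest marker most, and Vim (9.72) and Nes (8.05) had the highest means of their lists. The lower sums of these 2 lists therefore partly restate single genes. At 2.64% of all genes called, 0 called in lists this short says little. No marker of these lists had a mean of 4 or lower, the low end of the signals. Several had a mean at or under 6, below the array medians, so whether they are expressed is uncertain. These were 5 fibroblast and feeder, 2 extraembryonic endoderm, 3 trophoblast, 3 neuroectoderm and 2 cardiomyocyte markers. The part of these markers in the results was not tested. In whole aggregates, fewer cells of a type and less RNA per cell cannot be told apart. The 3′ minus 5′ signal of the Actb control probe sets, a measure of RNA integrity, was 1.22, 1.40 and 0.94 in controls 1 to 3 and 0.91, 1.08 and 0.91 in the treated arrays. It was lower with ascorbic acid in every pair, by 0.31, 0.32 and 0.03. With this measure as a covariate, a setting chosen after seeing the data, 147 genes were called, 123 of them among the 481.

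The lists of the HIF pathway held the most genes that fell. Of 58 measured genes in 3 lists (HIF hydroxylases, glycolysis with glucose transport, and other HIF targets), 14 fell and 1 rose, against 0.539% and 2.11% of all genes. The median difference was -0.18, against -0.01 for all genes, and 24 of the 58 were below 0 in all 3 pairs, against 16.1% of all genes. The count of fallen genes was 5 without replicate 1, 13 without replicate 2 and 10 without replicate 3. It was 0 without the pairing and 11 with the Actb covariate. A further 3 genes of the glycolysis list and 5 of the list of other HIF targets had no probe set with their symbol alone and were not analysed here.

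The first of these genes is Egln3, which encodes the HIF prolyl hydroxylase PHD3 and is itself a target of HIF. Its level was 8.51, 8.95 and 8.44 in controls 1 to 3 and 7.80, 7.97 and 6.97 in the treated arrays of the same numbers. All 3 treated arrays were below all 3 controls. Egln3 thus fell by 1.05 ± 0.15 on the log2 scale (SE of the pooled fit, n = 3 pairs at day 2; adjusted p = 0.00109), which is 2.08-fold. A second probe set of the gene had a difference of -1.03 ± 0.14 (adjusted p = 0.00133). The other hydroxylases of HIF did not pass the test. Egln1 (PHD2) had a difference of -0.20 ± 0.13, Egln2 (PHD1) one of 0.27 ± 0.10, and Hif1an, the asparaginyl hydroxylase FIH, one of 0.09 ± 0.10. Egln2 was above its controls in all treated arrays, at 8.99, 9.06 and 9.0 against 8.55, 8.71 and 8.98. The mRNA of the HIF subunit Hif1a had a difference of 0.12 ± 0.08 (adjusted p = 0.468).

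Of 21 measured genes of glycolysis and glucose transport, 8 fell and 0 rose, and the median difference was -0.28. Pair by pair the median was -0.20, -0.18 and -0.39. Pfkl encodes the liver form of phosphofructokinase, which commits sugar to glycolysis. It was at 9.74, 9.94 and 9.57 in the controls and at 8.90, 9.11 and 8.44 with ascorbic acid, with no overlap, a fall of 0.93 ± 0.10 (adjusted p = 0.000158). Its other 2 probe sets differed by -0.20 and -0.12 and were not called. Pgk1, the phosphoglycerate kinase, was at 13.07, 13.09 and 12.82 in controls and at 12.32, 12.57 and 12.36 in treated arrays. The groups lay apart, and the gene fell by 0.58 ± 0.08 (1.49-fold; adjusted p = 0.000863), with differences of -0.42 and -0.53 at its other probe sets, both called.

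Slc2a1 encodes GLUT1, a glucose transporter that also carries oxidised vitamin C. Controls were at 11.85, 12.10 and 11.57, and treated arrays at 11.03, 11.92 and 10.56. Pair 2 differed by -0.18 while pairs 1 and 3 differed by -0.82 and -1.01, and treated replicate 2 lay above 2 of the controls. The fitted fall was 0.67 ± 0.13 (adjusted p = 0.00985; 0.118 without replicate 1). Slc2a3 (GLUT3) fell by 0.49 ± 0.07 (adjusted p = 0.00128), from 12.05, 11.93 and 11.26 to 11.65, 11.54 and 10.57, so that it was lower within each pair while the groups overlapped. The other probe sets of Slc2a1 differed by -0.78 and -0.71, and those of Slc2a3 by 0.01, -0.37 and -0.50. Further called genes were Pkm, the pyruvate kinase (-0.46 ± 0.08), the aldolase gene Aldoa (-0.41 ± 0.07), the triosephosphate isomerase gene Tpi1 (-0.40 ± 0.08) and Ldha, whose enzyme makes lactate (-0.33 ± 0.08). Their adjusted p values were 0.00404, 0.00542, 0.0201 and 0.0406. These 4 genes are expressed strongly, with control means of 11.88 to 12.71, and none of them overlapped between groups. The 13 genes not called ran from -0.38 to 0.36, among them Hk2, a hexokinase, with 0.08 ± 0.10. Without replicate 1, 3 of the 21 genes were called lower (adjusted p = 0.0561 for Pkm), 8 without replicate 2 and 6 without replicate 3.

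Among 33 measured HIF targets outside glycolysis, 5 fell and 1 rose, with a median of -0.18. Bnip3, which marks mitochondria for removal, was at 10.20, 10.13 and 10.59 in controls and at 9.48, 9.67 and 9.41 with ascorbic acid. It fell by 0.79 ± 0.16 without overlap (1.73-fold; adjusted p = 0.0145; 0.0952 without replicate 1 and 0.0579 without replicate 3). Ak4, a mitochondrial adenylate kinase, was at 8.81, 8.68 and 8.51 in controls and 8.34, 8.09 and 7.36 in treated arrays, a fall of 0.74 ± 0.12 without overlap (adjusted p = 0.00386). Its 4 other probe sets ranged from -0.06 to -0.73, and 1 of them was called. Fam162a, a HIF-induced mitochondrial protein, fell by 0.63 ± 0.10, and Ddit4 (REDD1), an inhibitor of mTOR signalling, fell by 0.65 ± 0.13, with adjusted p of 0.00235 and 0.0165. Without replicate 1 these values were 0.057 and 0.0904, and for Ddit4 the value was 0.151 without replicate 2. Ccng2, a cyclin of resting cells, fell by 0.48 ± 0.12 (adjusted p = 0.0339). Epas1, which encodes HIF-2α, rose by 0.90 ± 0.20 (adjusted p = 0.026; 0.0962 without replicate 1 and 0.246 without replicate 2). Its differences in pairs 1 to 3 were 0.67, 1.66 and 0.37, the groups overlapped, and its second probe set differed by -0.11. Vegfa, a classical HIF target, differed by -0.11 ± 0.18, and Pdk1, which limits entry of pyruvate into mitochondria, by 0.04 ± 0.13.

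**Figure D2:**
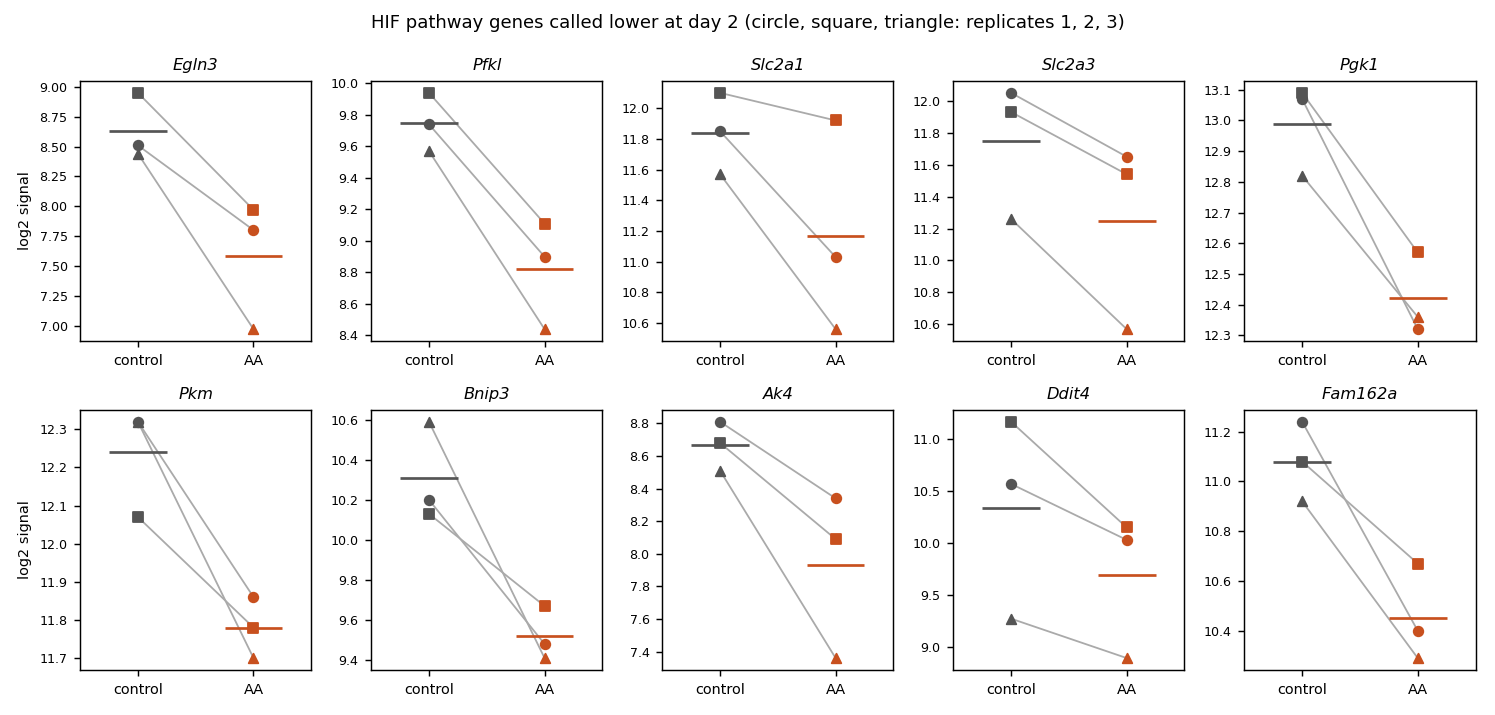
Log2 signals (vertical axes, which do not start at 0) of 10 HIF pathway genes on the 3 control and 3 ascorbic acid (AA) arrays of day 2; grey lines join same-numbered replicates and short bars mark group means. Every line falls, and the treated arrays lie wholly below the controls in 7 panels, with overlap for Slc2a1, Slc2a3 and Ddit4.

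HIF binds DNA at the letters ACGTG. The 250 bases before the transcription start of 3 of the fallen genes are shown because they carry these letters, in capitals on either strand. They are from RefSeq, build GRCm38.p6, written 5′ to 3′ on the strand of the gene: Egln3 at chr12:54203875-54204124 on the minus strand, Pgk1 at chrX:106186850-106187099 on the plus strand and Bnip3 at chr7:138909507-138909756 on the minus strand.
Egln3: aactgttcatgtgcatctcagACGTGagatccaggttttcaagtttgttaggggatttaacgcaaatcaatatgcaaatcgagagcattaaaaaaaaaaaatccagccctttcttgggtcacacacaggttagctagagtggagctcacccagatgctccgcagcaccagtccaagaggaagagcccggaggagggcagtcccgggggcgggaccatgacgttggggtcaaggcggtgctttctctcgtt
Pgk1: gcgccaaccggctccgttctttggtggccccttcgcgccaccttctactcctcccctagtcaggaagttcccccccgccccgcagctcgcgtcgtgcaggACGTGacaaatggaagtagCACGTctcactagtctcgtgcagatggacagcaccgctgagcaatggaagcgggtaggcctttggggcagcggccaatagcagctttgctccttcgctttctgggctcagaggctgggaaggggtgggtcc
Bnip3: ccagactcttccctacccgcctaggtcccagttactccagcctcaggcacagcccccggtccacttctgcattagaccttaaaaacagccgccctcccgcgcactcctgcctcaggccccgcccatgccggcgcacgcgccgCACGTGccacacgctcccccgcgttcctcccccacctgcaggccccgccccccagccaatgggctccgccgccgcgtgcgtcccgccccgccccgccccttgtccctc
In Pgk1 the second match is read on the other strand, and in Bnip3 the letters CACGTG hold a match on each strand. Of the 13 fallen HIF pathway genes with a promoter in the table, 10 had the letters in this window. So did 20 of 37 genes of the same lists that were not called, and 18.5% of all 27025 genes with a promoter in the table. A match is a description of the letters and not a measured binding site.

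Of 47 measured germline and meiotic genes, 9 rose and 2 fell, against 2.11% and 0.539% of all genes, with a median of 0.16, and 16 were above 0 in all 3 pairs, against 16.6% of all genes. The count that rose was 6 without replicate 1, 6 without replicate 2 and 12 without replicate 3, and 5 with the Actb covariate (1 fell). Dmrt1, a transcription factor of testis and germ cells, was at 8.12, 8.07 and 8.41 in controls and at 9.38, 9.30 and 9.33 with ascorbic acid. The treated arrays were close together and all above the controls, and the gene rose by 1.14 ± 0.12 (2.20-fold; adjusted p = 9.23e-05). Wt1, a zinc finger factor of gonad and kidney and so not particular to germ cells, was at 7.08, 6.43 and 7.61 in controls and 7.74, 8.40 and 8.39 in treated arrays. It rose by 1.14 ± 0.19 without overlap (adjusted p = 0.00386), with a difference of 1.97 in pair 2 and of 0.66 and 0.78 in the other pairs.

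Hormad1, a protein of the meiotic chromosome axis, was at 3.99, 3.50 and 5.62 in controls and at 4.81, 5.15 and 7.0 with ascorbic acid. It was higher in each pair (1.28 ± 0.14; adjusted p = 0.000158), but replicate 3 was high in both arms, so the groups overlapped. Its first 2 controls lie at the low end of the signals, and no fold is given. Slc25a31 (ANT4), the adenine nucleotide carrier of germ cells, had the same pattern, with 5.2, 5.25 and 6.50 in controls and 6.26, 6.60 and 7.20 in treated arrays, a rise of 1.04 ± 0.14 (adjusted p = 0.000892). Tex19.1, a germline protein that restrains retrotransposons, rose by 0.99 ± 0.19, Sohlh2, a germ cell transcription factor, by 0.75 ± 0.12, and Mael, a protein of the piRNA pathway, by 0.72 ± 0.16. Tex11, which acts in meiotic recombination, rose by 0.68 ± 0.10 and Stra8, the retinoic acid target that opens meiosis, by 0.51 ± 0.11. The adjusted p values of these 5 were 0.0111, 0.00326, 0.0257, 0.00127 and 0.0184. Rec114, which helps form the DNA breaks of meiosis, rose by 0.99 ± 0.12 without overlap (adjusted p = 0.00029).

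Both genes of this list that fell act in germ cells. Meioc, which sustains meiotic prophase, was at 7.83, 7.28 and 7.30 in controls and 6.14, 6.35 and 6.38 with ascorbic acid, a fall of 1.18 ± 0.14 without overlap (2.27-fold; adjusted p = 0.000203). Ddx4, the germ cell helicase VASA, fell by 0.73 ± 0.15 without overlap (adjusted p = 0.0159; 0.175 without replicate 1 and 0.092 without replicate 2). Dazl, a germ cell RNA-binding protein often used as a marker of promoter demethylation, differed by 0.50 ± 0.16 and Sycp3, of the synaptonemal complex, by 0.32 ± 0.21 (adjusted p = 0.119 and 0.449).

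Many promoters of germline genes carry an E-box with the letters CACGTG, which is read by MAX and its partners. The same window of 250 bases (RefSeq, GRCm38.p6, strand of the gene) is shown for Hormad1 at chr3:95559427-95559676 (plus strand), Slc25a31 at chr3:40708621-40708870 (plus strand) and Ddx4 at chr13:112652311-112652560 (minus strand), because these letters stand before genes that moved in either direction. CACGTG contains the ACGTG searched above and reads the same on both strands.
Hormad1: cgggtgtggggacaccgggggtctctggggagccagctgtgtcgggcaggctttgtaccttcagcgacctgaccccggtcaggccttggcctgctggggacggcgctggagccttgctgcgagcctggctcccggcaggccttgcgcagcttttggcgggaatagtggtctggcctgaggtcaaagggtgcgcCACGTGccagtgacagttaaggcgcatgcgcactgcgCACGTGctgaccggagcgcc
Slc25a31: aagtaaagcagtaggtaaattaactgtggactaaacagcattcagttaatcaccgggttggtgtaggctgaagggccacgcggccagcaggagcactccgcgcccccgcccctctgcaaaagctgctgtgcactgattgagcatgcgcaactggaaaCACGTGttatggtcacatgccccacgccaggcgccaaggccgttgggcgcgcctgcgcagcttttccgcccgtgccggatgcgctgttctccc
Ddx4: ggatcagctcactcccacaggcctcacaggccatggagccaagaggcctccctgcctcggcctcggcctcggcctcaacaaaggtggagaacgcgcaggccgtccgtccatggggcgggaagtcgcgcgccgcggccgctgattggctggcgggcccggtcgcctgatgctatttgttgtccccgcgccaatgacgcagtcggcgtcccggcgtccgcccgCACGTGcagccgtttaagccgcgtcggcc
Among germline genes with a promoter in the table, 3 of the 6 that rose, 1 of the 2 that fell and 9 of the 27 not called held CACGTG in this window. The letters were in this window in 6.86% of all genes with a promoter in the table.

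DNA methylation is written by methyltransferases, which are not dioxygenases, and oxidised by the TET enzymes, which are. Of 16 measured genes of this list, 3 rose (against 2.11% of all genes) and 0 fell, with a median of 0.13. The count was 1 without replicate 1, 2 without replicate 2, 6 without replicate 3 and 2 with the Actb covariate. Dnmt3a, the methyltransferase that sets new methylation, was at 10.97, 10.97 and 11.07 in controls and 11.49, 11.73 and 11.61 with ascorbic acid, with no overlap. It rose by 0.61 ± 0.10 (1.52-fold; adjusted p = 0.00345), and all 4 of its other probe sets were called, with rises of 0.50 to 0.91. Tet1, the main TET enzyme of stem cells, was at 9.53, 8.88 and 9.61 in controls and 9.79, 9.75 and 10.09 in treated arrays. Its rise was 0.54 ± 0.12 without overlap (adjusted p = 0.0281; 0.057 without replicate 1 and 0.235 without replicate 2), and its 3 other probe sets differed by 0.31, -0.06 and 0.39 and were not called. Uhrf1, which brings DNMT1 to replicated DNA, rose by 0.41 ± 0.07 (adjusted p = 0.00672; 0.0742 without replicate 1). Tet2, Tet3, Dnmt1 and Dnmt3b differed by 0.12, -0.09, 0.10 and -0.02, none called, and Dnmt3l by -0.30 ± 0.22. Of 26 JmjC demethylases 1 was called, near the 2.64% of all genes: Jmjd1c (0.36 ± 0.09; adjusted p = 0.0463). The count that rose was 0 without replicate 1, without replicate 2 and with the Actb covariate.

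Genes of the response to oxidants rose in 4 of 26 measured cases, against 2.11% of all genes, and 0 fell. The list median was 0.24, with 0.22, 0.22 and 0.18 in the 3 pairs. Of the 26 genes 16 were above 0 in all pairs, against 16.6% of all genes. The count of risen genes was 1 without replicate 1, 2 without replicate 2 and 7 without replicate 3. With the Actb covariate 2 rose and 1 fell. Nqo1, the quinone reductase that is the standard target of the transcription factor NRF2, was at 7.37, 6.66 and 8.09 in controls and at 8.36, 7.93 and 9.20 with ascorbic acid. The controls differed among themselves by more than 1 unit, yet each treated array exceeded its own control, by 0.99, 1.27 and 1.11. The rise of Nqo1 was 1.12 ± 0.12 (2.18-fold; adjusted p = 9.23e-05). Gpx4, the peroxidase that removes lipid peroxides, rose by 0.74 ± 0.13 (adjusted p = 0.00579), by 0.81, 1.19 and 0.21 in pairs 1 to 3. Its second probe set differed by 0.30 and was not called. Gsr, the glutathione reductase, rose by 0.52 ± 0.11 and Fth1, the ferritin heavy chain, by 0.30 ± 0.06, both without overlap (adjusted p = 0.0212 and 0.011). Without replicate 1 the adjusted p was 0.0814 for Gpx4, 0.146 for Gsr and 0.057 for Fth1, without replicate 2 it was 0.0624 for Gpx4 and 0.0766 for Fth1, and without replicate 3 it was 0.0577 for Gsr. Hmox1, the haem oxygenase, differed by 0.52 ± 0.15 and Gclm, a subunit that limits glutathione synthesis, by 0.32 ± 0.10 (adjusted p = 0.0809 and 0.0973). Gstp1, a glutathione transferase outside that list, rose by 0.73 ± 0.09 (adjusted p = 0.000452).

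**Figure D3:**
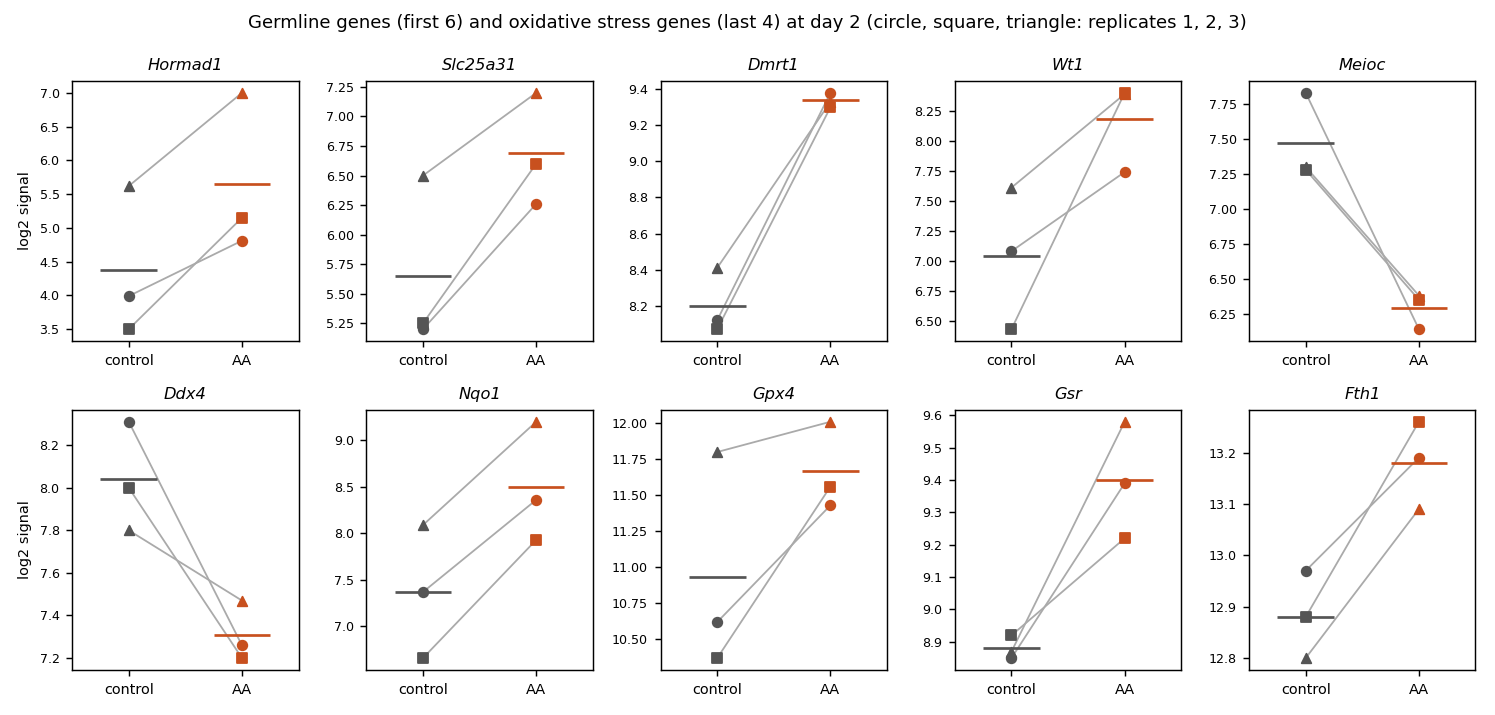
Log2 signals (vertical axes, which do not start at 0) on the 6 day 2 arrays of 6 genes of the germline list and 4 genes of the response to oxidants. Grey lines join same-numbered replicates, short bars are group means and AA is ascorbic acid. Meioc and Ddx4 fall in every pair and the other 8 genes rise in every pair, while the groups overlap for Hormad1, Slc25a31, Nqo1 and Gpx4.

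Among transporters and enzymes that carry, recycle or make vitamin C, 2 of 14 fell and 0 rose, against 0.539% and 2.11% of all genes. The 2 were the glucose transporters Slc2a1 and Slc2a3 given above. The sodium-dependent vitamin C transporters Slc23a1 and Slc23a2 differed by 0.07 ± 0.14 and 0.01 ± 0.13. Gulo, the last enzyme of vitamin C synthesis, was at a control mean of 4.95 and differed by -0.08 ± 0.12. The collagen hydroxylases and their partners were measured by 19 genes, of which 0 were called. Their differences ran from -0.47 (P4ha2) to 0.37 (Crtap), and the smallest adjusted p, 0.0547, was that of the prolyl isomerase Ppib at 0.32 ± 0.08. Of 26 collagen genes 0 were called, and the median was -0.13. Of these 21 were below 0 and 5 above it, against 47.5% of all genes above 0. Here and below, that share is not matched for signal level, and 19 of the 26 had a mean above 6. Signals also spread slightly more widely on treated arrays (SD 2.05 to 2.08) than on control arrays (SD 1.99 to 2.04). Whether this bears on the counts of signs was not tested.

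Heat shock genes as a list stayed near 0, with a median of 0.04, but 2 of 22 fell, against 0.539% of all genes. Hspa1b, an inducible HSP70, was at 9.33, 8.78 and 8.70 in controls and at 7.72, 7.38 and 7.47 with ascorbic acid, with no overlap. It fell by 1.41 ± 0.13 (2.66-fold; adjusted p = 2.45e-05), the largest fall of a named gene, and its other 2 probe sets differed by -1.30 and -1.42. Hspa1a fell by 0.86 ± 0.14 (adjusted p = 0.00435; 0.0884 without replicate 1), from 7.17, 5.74 and 5.83 to 5.97, 5.06 and 5.14. Hspa1a and Hspa1b are near-identical copies, so which copy changed is uncertain. Heat shock factor binds paired units with the letters GAANNTTC, which are palindromic. The 250 bases before the start of Hspa1b, at chr17:34959239-34959488 on the minus strand (RefSeq, GRCm38.p6), are shown with that match in capitals.
Hspa1b: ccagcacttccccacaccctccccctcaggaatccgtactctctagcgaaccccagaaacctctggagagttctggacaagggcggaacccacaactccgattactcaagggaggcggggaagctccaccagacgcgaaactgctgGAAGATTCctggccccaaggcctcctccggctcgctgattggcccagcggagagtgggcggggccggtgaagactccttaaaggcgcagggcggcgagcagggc
The letters stood in this window in both heat shock genes that fell, in 4 of 17 not called and in 7.73% of all genes with a promoter in the table.

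The smooth and skeletal muscle list had 5 of 24 genes that rose, against 2.11% of all genes, and 0 that fell, with a median of 0.06. The count was 2 without replicate 1 and 3 with the Actb covariate. Mymx, the small membrane protein of myoblast fusion, was at 6.37, 6.0 and 6.94 in controls and 8.35, 6.69 and 9.25 with ascorbic acid. It was higher by 1.98, 0.69 and 2.31 in pairs 1 to 3, a rise of 1.66 ± 0.22 (3.16-fold; adjusted p = 0.000851), with treated replicate 2 below control replicate 3. Undifferentiated stem cells had the highest Mymx mean of any group, 9.6 ± 1.53 (SD, n = 3). The treated mean of 8.1 ± 1.3 thus lay between the stem cell level and the control mean of 6.44 ± 0.47. Whether the rise of Mymx reflects muscle or a retained stem cell level was not tested. Myl9, a regulatory myosin light chain of smooth muscle, was at 6.65, 6.47 and 6.50 in controls and 7.96, 7.23 and 7.87 in treated arrays, a rise of 1.15 ± 0.14 without overlap (adjusted p = 0.000466). Acta2, smooth muscle actin, rose by 0.66 ± 0.13 and Cnn2, a calponin, by 0.46 ± 0.10, both without overlap (adjusted p = 0.016 and 0.0201). Without replicate 1 these were 0.147 and 0.114, and for Cnn2 the value was 0.0551 without replicate 3. The 2 other probe sets of Acta2 are dim and differed by -0.03 and -0.07. Myf5, a factor of skeletal muscle, was near the low end of the signals, with a control mean of 3.49. In the heart lists, 0 of 22 cardiomyocyte genes and 0 of 21 cardiac progenitor genes were called. Their smallest adjusted p values were 0.0569 and 0.055. Of the 21 progenitor genes 18 were below 0 and 3 above it, against 47.5% of all genes above 0, with a median of -0.15. That share is not matched for signal level, and 11 of the 21 had a mean above 6. Tnnt2, cardiac troponin T, was at 5.75, 5.55 and 5.55 in controls and 5.55, 5.63 and 5.53 with ascorbic acid. Its mean was 5.6 at day 0 and 5.59 in day 5 controls, and its other probe sets lay at 3.1 and 3.78 at day 2. Nkx2-5, the cardiac homeobox factor, and Mesp1, a factor of early cardiac mesoderm, differed by -0.30 ± 0.12 and 0.34 ± 0.20 (adjusted p = 0.211 and 0.391).

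Most markers of pluripotency did not pass the test. Pou5f1, Nanog and Fgf5 differed by 0.02 ± 0.13, -0.02 ± 0.12 and 0.03 ± 0.11. Among 19 naive pluripotency genes Klf4 fell (-0.68 ± 0.13; adjusted p = 0.0109) and 0 rose. The count of fallen genes in that list was 0 without replicate 1 and with the Actb covariate. In the general pluripotency list of 18 genes, Dppa4, a chromatin protein of pluripotent cells, rose by 0.49 ± 0.09, and Trim28, a corepressor that silences retrotransposons, fell by 0.26 ± 0.06 (adjusted p = 0.00987 and 0.0336). Dnmt3a, given above, and Sox4 (0.35 ± 0.08; adjusted p = 0.0333) were the 2 of 19 primed epiblast genes that rose. Over all genes 2.11% rose and 0.539% fell. Lefty2, an inhibitor of Nodal, was at 7.20, 7.16 and 7.81 in controls and 8.47, 8.72 and 8.00 with ascorbic acid. The groups lay apart and the gene rose by 1.01 ± 0.19 (adjusted p = 0.00989), though by 0.19 in pair 3 against 1.27 and 1.56 in the others. Eomes, a factor of the primitive streak and trophoblast, fell by 0.62 ± 0.14 (adjusted p = 0.024; 0.211 without replicate 2), with groups that overlapped. Without replicate 1 the adjusted p was 0.117 for Dppa4, 0.208 for Trim28, 0.0669 for Sox4 and 0.123 for Lefty2. It was 0.107 for Sox4 and 0.111 for Lefty2 without replicate 2, and 0.0875 for Trim28 and 0.0958 for Sox4 without replicate 3.

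Further large changes lay outside the lists described so far. Pttg1, securin, which holds sister chromatids together until anaphase, was at 10.57, 10.74 and 10.31 in controls and 11.82, 11.84 and 11.64 with ascorbic acid. The spread within each group was small beside the gap, and Pttg1 rose by 1.23 ± 0.08 (2.34-fold; adjusted p = 3.82e-07), with 0.94 and 1.67 at its other probe sets. Dpys, the dihydropyrimidinase of pyrimidine breakdown, was at 5.72, 6.01 and 6.62 in controls and 7.29, 7.35 and 7.97 in treated arrays. It rose by 1.42 ± 0.12 without overlap (2.68-fold; adjusted p = 2.44e-05), while its 2 dimmer probe sets differed by -0.04 and -0.22. Aass, the first enzyme of lysine breakdown, rose by 1.28 ± 0.26, Ttpa, the vitamin E transfer protein, by 1.07 ± 0.17, and As3mt, the arsenic methyltransferase, by 0.93 ± 0.24. Their adjusted p values were 0.0141, 0.00334 and 0.0498. In Aass pair 2 differed by 2.63, against 0.68 and 0.54 in the other pairs, and its adjusted p was 0.0739 with day 2 arrays only. Plac8, a gene of placenta and blood cells, rose by 1.04 ± 0.15, Rpl39l, a ribosomal protein of germ cells, by 1.05 ± 0.18, and Mbnl1, a splicing regulator, by 0.92 ± 0.16. All 6 genes are among the 15 largest rises. Those, like the 15 largest falls, were picked only from called genes without overlap, so the lack of overlap follows from that choice. Without replicate 1 the adjusted p was 0.227 for As3mt, 0.067 for Rpl39l and 0.0814 for Mbnl1, and As3mt also lost its call without replicate 2 (0.213) and without replicate 3 (0.0569).

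Among falls, Irs4, an adaptor of insulin signalling, was at 8.67, 8.26 and 8.09 in controls and 7.57, 7.31 and 6.68 in treated arrays. It fell by 1.15 ± 0.13 without overlap (2.22-fold; adjusted p = 0.000203), and its dimmer probe set differed by -0.45. Mkx, a homeobox factor of tendon, was at 6.60, 6.03 and 6.25 in controls and 5.56, 4.89 and 5.09 with ascorbic acid, a fall of 1.11 ± 0.13 without overlap (adjusted p = 0.000189). Nrk, an X-linked kinase, fell by 1.09 ± 0.16, the imprinted factor Peg3 by 0.87 ± 0.15, and Hmgn3, a nucleosome-binding protein, by 0.86 ± 0.13. In Peg3 pair 2 differed by -0.16, against -1.19 and -1.26 in the other pairs. Emp2, a membrane protein, and Map3k1, a kinase of stress signalling, fell by 0.74 and 0.79. The other probe sets of Emp2 differed by -0.18 and -0.09, that of Map3k1 by -0.12, those of Nrk by -0.10 and -0.11, and those of Peg3 by -0.80 to 0.02. Without replicate 1 the adjusted p was 0.0914 for Peg3 and 0.109 for Emp2. The gene called without pairing was AI662270, named here after its value was seen. It was at 4.46, 4.53 and 4.48 in controls and 5.09, 5.68 and 5.49 in treated arrays, a rise of 0.93 ± 0.13 (adjusted p = 0.00109 paired and 0.0167 unpaired).

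**Figure D4:**
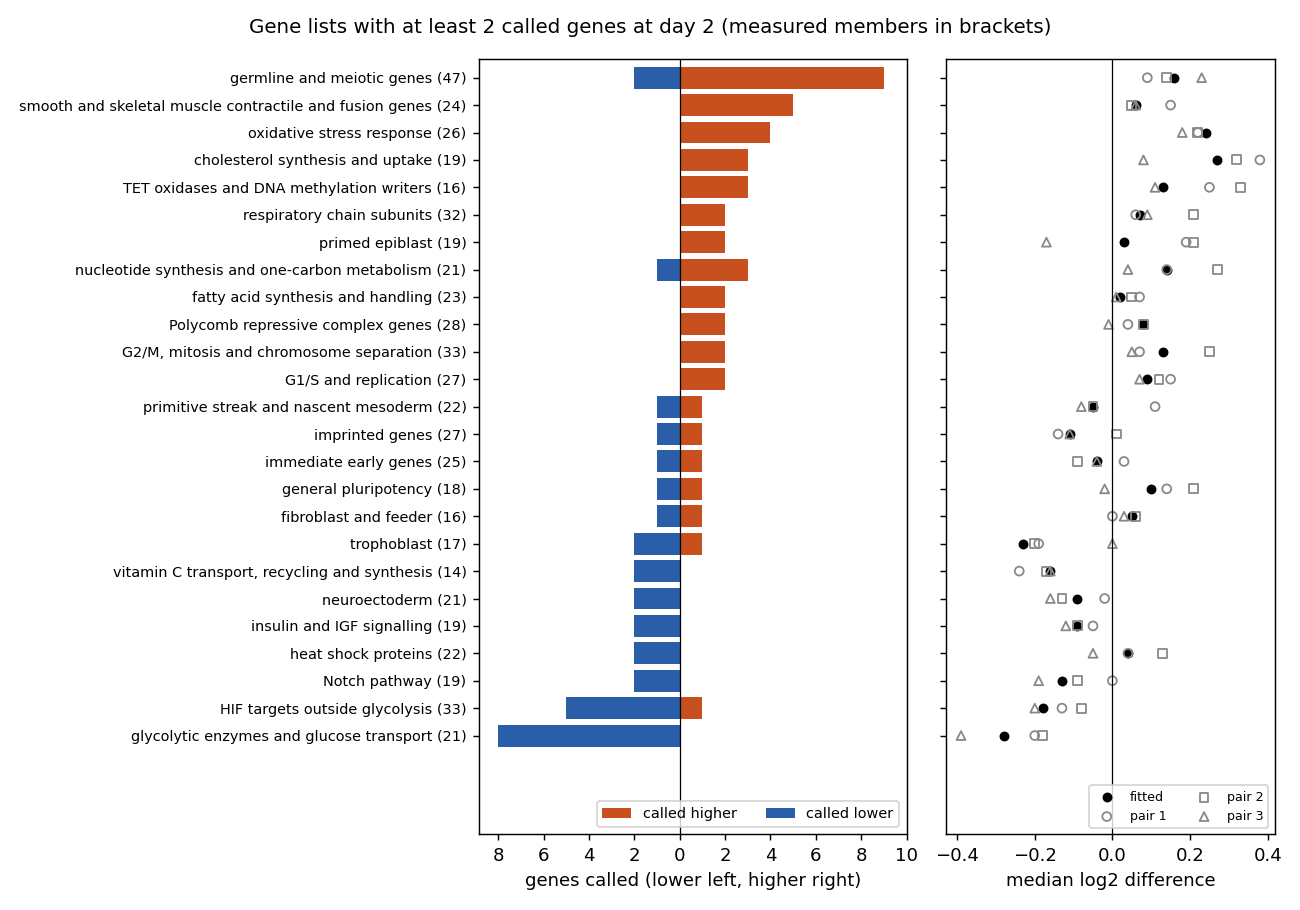
Left, the number of genes called higher (orange, to the right) and lower (blue, to the left) in each gene list with at least 2 called genes; right, the median log2 difference of all measured members, fitted (black) and in each pair (open symbols). The glycolysis list has 8 genes lower and a median of -0.28, and the germline list 9 higher and 2 lower with a median of 0.16.

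The day 2 response was then set beside those of days 3 and 5, fitted in the same model on their own control and treated arrays. At day 3, 36 genes (0.198%) were called and at day 5, 174 (0.956%). Of the 481 genes of day 2, 23 were called at day 3, 20 at day 5 and 6 at both. The genes that rose at day 2 had a median of 0.52 there, 0.09 at day 3 and 0.03 at day 5, and 293 of the 383 were above 0 at day 3 and 221 at day 5. Those that fell had medians of -0.54, -0.13 and -0.00, and 77 of the 98 were below 0 at day 3 and 50 at day 5. The day 2 genes were chosen by their day 2 values, so their differences at that day are larger by construction.

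The difference between the days was tested for each gene as the day 2 effect minus the mean of the effects at days 3 and 5. It was called for 44 genes (0.242%), 29 above and 15 below 0, of which 40 were among the 481. Taken singly, day 2 differed from day 3 in 1 gene (1553 at an unadjusted p under 0.05, limma) and from day 5 in 139. For the contrast with the mean of days 3 and 5, the count of 44 became 14 without replicate 1, 284 without replicate 3 and 0 without the pairing. Between day 2 and the mean of the other days, Hspa1b differed by -1.20 ± 0.16, Dpys by 1.18 ± 0.15, Nqo1 by 1.16 ± 0.14 and Hormad1 by 1.43 ± 0.17. Each had an adjusted p of 0.00261 (limma). Control means at days 3 and 5 were 3.47 and 3.05 for Hormad1, at the low end of the signals, and 5.53 and 4.67 for Dpys. Differences near the low end are compressed, and how far the contrasts follow from the later levels was not tested. Hspa1b had a control mean of 8.94 ± 0.34 (SD, n = 3) at day 2, 8.06 ± 0.71 at day 3 and 7.21 ± 0.16 at day 5, and its day 2 treated level of 7.52 ± 0.18 lay between those of the later controls. Nqo1 was at 7.37 ± 0.72 in day 2 controls, 6.54 ± 0.36 at day 3 and 5.51 ± 0.09 at day 5, and was highest, at 8.50 ± 0.65, in the day 2 treated arrays. Dmrt1 likewise was highest in day 2 treated arrays (9.34 ± 0.04), against 7.67 ± 0.58 at day 0 and 5.60 ± 0.08 in day 5 controls. Dpys was at 9.05 ± 0.91 at day 0 and 6.12 ± 0.46 in day 2 controls, and its treated arrays lay between them at 7.54 ± 0.38.

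Egln3 fell at day 2 and had differences of -0.29 ± 0.15 at day 3 and 0.51 ± 0.15 at day 5, neither called. The day 2 effect differed from the mean of these by -1.16 ± 0.18 (adjusted p = 0.00893). Taken singly, it differed from the day 5 effect (limma, adjusted p = 0.0016), while the contrast with day 3 was not called (0.312). Pfkl fell at day 3 as well, by 0.61 ± 0.10 (adjusted p = 0.0232), and differed by 0.11 at day 5. Pgk1 fell by 0.63 ± 0.08 at day 3 (adjusted p = 0.00144) and differed by 0.05 at day 5. Of the 21 glycolysis genes, 5 were called at day 3 and 0 at day 5, against 0.198% and 0.956% of all genes. In a list of 21 genes, 0 called at day 5 is near the share of all genes. The list medians were -0.28, -0.10 and 0.13 at days 2, 3 and 5. Pttg1, Mkx and Meioc show the other pattern. Pttg1 rose by 1.13 at day 3 and 1.36 at day 5, and Mkx fell by 1.11 and 0.92, all called, and the contrast of day 2 with the later days was -0.02 ± 0.10 and -0.10 ± 0.15 (adjusted p = 0.959 and 0.828). Meioc fell by 1.37 at day 3 (adjusted p = 0.000161) and was at 3.28, the low end of the signals, in both arms at day 5.

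**Figure D5:**
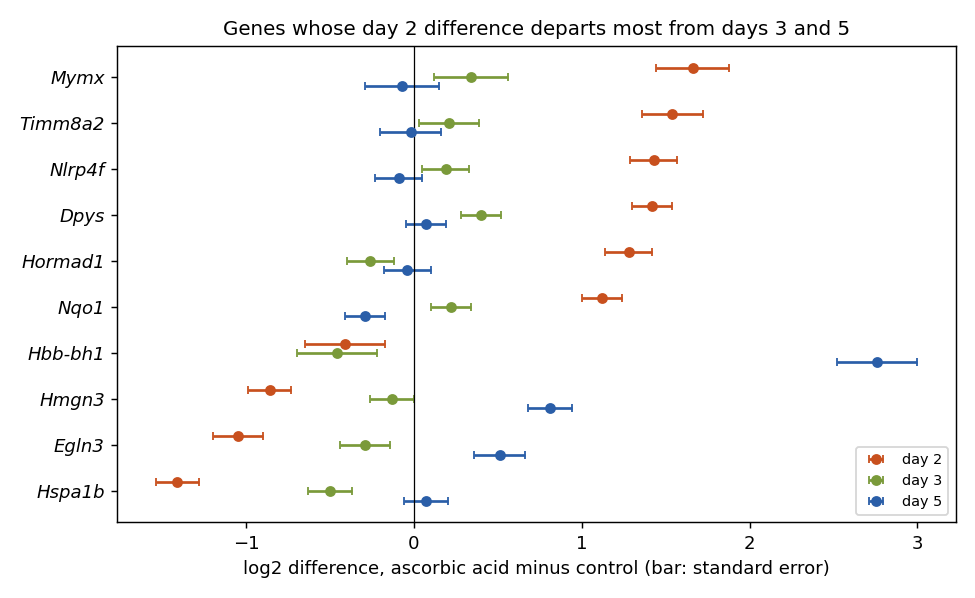
Log2 difference, ascorbic acid minus control (horizontal axis), at day 2 (orange), day 3 (green) and day 5 (blue) for the 10 called genes with the largest contrast of day 2 against the later days; bars are standard errors of the fit, n = 3 pairs a day. Of these genes, Hormad1 was called between days 2 and 3 and all 10 between days 2 and 5; Hbb-bh1, an embryonic globin, was not called at day 2 and rose by 2.76 at day 5.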

How the data were processed

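Per the submitters' processing notes, the authors deposited log2 signals made with RMA, which corrects background, quantile-normalises arrays and summarises probes (version not given in the sources used here). Its table held 45101 probe sets on 21 arrays. Of these, 34945 carried 1 gene symbol (932 carried several and 9211 none), and the probe set with the highest mean stood for each of 18193 genes. Quantile normalisation equalises overall signal, so a shift shared by most genes could not be seen. No read depth exists for arrays, and the number of arrays limits the precision.

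Tests used R 4.3.3 and limma 3.58.1 (lmFit, eBayes with trend) on the 18 arrays of days 2, 3 and 5, with 9 pairs as blocks and a treatment effect for each day. Residual degrees of freedom were 6. Genes with a Benjamini-Hochberg adjusted p under 0.05 were called. Pairs came from the replicate numbers: deviations of same-numbered arrays from their group means correlated at 0.178, 0.224 and 0.302 at day 2, and above 0.1 at days 3 and 5. The fits were tested on simulated data. Alternatives were other blocks, scaling, probe sets, filters and moderation, and leaving out each day 2 pair.

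Members and gene lists were chosen with earlier results of these data known. Named genes were the 15 largest rises and 15 largest falls among called genes without overlap and with a mean above 6, up to 5 called members of each list with at least 2, all hydroxylase, TET, DNA methylation and vitamin C genes, the 10 largest day contrasts and 11 state markers. Other genes named were chosen after their values were seen. Promoters of 14452 tested genes came from RefSeq (GRCm38.p6). Tables were handled in Python 3.11.15 with pandas 2.3.3.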

Additional observations from a re-analysis of the deposited data

Results flagged for a closer look

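Among the genes named by rule, there were 17 for which the response to ascorbic acid at day 2 differed from the mean response at days 3 and 5 by a test of the difference itself (limma, adjusted p under 0.05 over all genes, where 44 genes in all were called). The difference was positive for Mymx (1.52), Timm8a2 (1.45), Hormad1 (1.43), Nlrp4f (1.38), Dpys (1.18), Nqo1 (1.16), Dmrt1 (0.94) and Dppa4 (0.76). Timm8a2, an intron-less copy of a mitochondrial import gene, was at 4.11, 3.79 and 4.73 in day 2 controls and 4.94, 5.24 and 7.08 with ascorbic acid, so that most of its arrays lie near the low end of the signals. Nlrp4f, of an oocyte-expressed family, rose by 1.43 ± 0.14 at day 2 and differed by 0.19 at day 3 and -0.09 at day 5. Control means at days 3 and 5 were 3.38 and 3.15 for Timm8a2, 4.5 and 4.32 for Nlrp4f and 5.38 and 4.03 for Mymx. Most of these lie near the low end of the signals, where a difference could hardly show. Dppa4 rose by 0.49 at day 2 and differed by -0.29 and -0.27 at the later days.

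The difference was negative for Hbb-bh1 (-1.56), Hspa1b (-1.20), Hmgn3 (-1.20), Egln3 (-1.16), Dcaf12l1 (-1.0), Jag1 (-0.88), Vim (-0.76), Pfkl (-0.68) and Slc2a3 (-0.48). Hbb-bh1 was not called at day 2 (-0.41 ± 0.24). Hmgn3, Dcaf12l1 and Jag1, a Notch ligand, fell at day 2 and rose at day 5, by 0.81, 0.76 and 0.67 there, all called. The other 2 probe sets of Jag1 differed by -0.09 and -0.11 at day 2. Vim, an intermediate filament gene, fell by 0.63 ± 0.12 at day 2 and differed by 0.19 and 0.07 later. With the Actb covariate, chosen after seeing the data, the number of genes called for this difference was 2, against 44.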

How the results depend on the processing

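The 481 genes called at day 2 (383 higher, 98 lower) depended on the pairs as blocks. With no replicate block, in a fit that also held the 3 day 0 arrays, the counts were 1, 1 and 0. With a replicate block across days they were 21, 15 and 6, and with day 2 arrays only 100, 74 and 26. The mean of all probe sets gave 313, 250 and 63, eBayes without trend 298 and 228, renewed quantile normalisation 246 higher, and median centring 62 lower. With the Actb covariate, chosen after seeing the data, they were 147, 113 and 34. Leaving out 1 pair gave 89 to 1212 called, 66 to 957 higher and 23 to 255 lower. For the contrast of day 2 with the later days (44), the counts were 0 with no replicate block, 1 with a replicate block across days, 83 for every probe set, 22 for the mean of probe sets, 24 without trend, 2 with the Actb covariate and 14 to 284 with 1 pair left out. The cause was not tested. The direction of all 481 genes held under each setting of the 1 probe set per gene fits, with 479 for the mean of probe sets and 421 of 421 tested above a mean of 6. Much of this was fixed in advance. Other blocks, day 2 arrays only, other moderation and the filter change the error and leave the difference itself as it was. As 477 of the 481 genes had the same sign in all 3 pairs, leaving out 1 pair could turn few signs. Of 83 named genes called, 1 stayed called with no replicate block, 44 with day 2 arrays only, 43 with the Actb covariate, 66 after renewed quantile normalisation, 33 without replicate 1, 55 without replicate 2 and 71 without replicate 3. Levels near 4 are close to the low end of the signals, where differences are compressed.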

Other observations

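Of 19 genes of cholesterol synthesis and uptake, 17 were above 0, against 47.5% of all genes, with a median of 0.27. All 19 had a mean above 6, while the share over all genes is not matched for signal level. The 3 that rose, against 2.11% of all genes, were Insig1, the sterol-sensing inhibitor (0.59 ± 0.10), Msmo1, a sterol demethylase (0.52 ± 0.13), and Hmgcs1, the HMG-CoA synthase (0.27 ± 0.06). Their adjusted p values were 0.0039, 0.0408 and 0.0341 (limma). The count was 0 without replicate 1, 2 without replicate 2 and 10 without replicate 3. Lpl, the lipoprotein lipase, rose by 0.83 ± 0.14 without overlap of the groups (adjusted p = 0.00409), and differed by 0.86 and 0.65 at days 3 and 5. Of 33 genes of mitosis, all with a mean above 6, 28 were above 0, against 47.5% of all genes, with a median of 0.13. Besides Pttg1 the cyclin gene Ccnb2 rose (0.47 ± 0.08; adjusted p = 0.0044). In nucleotide synthesis Tk1, a thymidine kinase, rose by 0.62 ± 0.12 and Cad, which starts pyrimidine synthesis, fell by 0.38 ± 0.10 (adjusted p = 0.00887 and 0.0441). The adjusted p of Cad was 0.211 without replicate 1 and 0.268 without replicate 2. Its other probe sets differed by -0.09 and -0.18 and were not called. Of 32 respiratory chain subunits 2 rose, against 2.11% of all genes, namely Ndufs1 (0.38 ± 0.10) and Sdhb (0.28 ± 0.07). Of 18 ribosomal protein genes 0 were called, with a smallest adjusted p of 0.291. Without replicate 1 the adjusted p of Insig1, Lpl, Ccnb2 and Tk1 was 0.0846, 0.0805, 0.0669 and 0.137, and 0 respiratory chain genes were called.

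In the Notch list 2 of 19 genes fell, against 0.539% of all genes. Dll3 and Jag1, both Notch ligands, fell by 0.49 ± 0.12 and 0.57 ± 0.13 (adjusted p = 0.0338 and 0.0292). Id3, a BMP target, fell by 0.72 ± 0.16, and Spry2, a feedback inhibitor of FGF signalling, by 0.49 ± 0.10, both without overlap (adjusted p = 0.0268 and 0.0185). Spry2 was the 1 gene of the FGF list that fell, and that count was 0 without replicate 1 and with day 2 arrays only. The neuroectoderm list likewise had 2 of 21 genes lower, Nes (-0.40 ± 0.10) and Fabp7 (-0.54 ± 0.11). In this list 16 of 21 were below 0 and 5 above it, against 47.5% of all genes above 0, and 9 of the 21 had a mean above 6. Krt8, an epithelial keratin, fell by 0.48 ± 0.09 (adjusted p = 0.0127) with overlap. Fos, an immediate early gene, fell by 0.45 ± 0.12 and Srf rose by 0.44 ± 0.10, both without overlap (adjusted p = 0.0471 and 0.0325); the second probe set of Srf differed by -0.08. Without replicate 1 the adjusted p was 0.0688 for Dll3, 0.153 for Jag1, 0.324 for Nes, 0.146 for Fabp7, 0.0689 for Krt8, 0.212 for Fos and 0.128 for Srf. Without replicate 2 it was 0.194 for Dll3, 0.0804 for Nes, 0.103 for Krt8 and 0.0941 for Fos. Without replicate 3 it was 0.0656 for Dll3, 0.0846 for Jag1, 0.0911 for Fos and 0.093 for Srf. Definitive endoderm (13 genes), extraembryonic endoderm (22), blood and endothelium (22), Wnt targets (15) and genes of the 2-cell-like state (7) had 0 called genes at day 2, with smallest adjusted p values of 0.11, 0.112, 0.0547, 0.102 and 0.196. These lists are short beside the 2.64% of all genes called.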
